A study of Mus musculus with 2 samples.

Results

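Mir106b, Mir93 and Mir25 are 3 microRNA genes that lie together in an intron of Mcm7 and are transcribed with it. They were taken from the deposited count tables by their GENCODE M21 symbols, and are 3 of the 2202 microRNA genes in those tables. The libraries came from hearts of aged female B6CASTF1/J mice, the first-generation hybrid of C57BL/6J and CAST/EiJ, at an age of 18 to 20 months, with no treatment named in the labels. There is 1 group of 2 libraries, numbered as biological replicates 1 and 2; the labels give each its own tissue record and both the same donor record. An SD below therefore measures only the spread between these libraries, which may be technical. With 1 group, the data hold no contrast between conditions, so the comparisons are those among the 3 genes of the cluster and between the libraries.

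Mcm7 encodes a subunit of the helicase that opens DNA for replication, and its transcription is known to follow the cell cycle through E2F factors. A microRNA is cut from a hairpin in the primary transcript, and 1 arm of the hairpin usually persists as the mature strand, which pairs with messenger RNAs mainly through its seed, bases 2 to 8. The mature miR-106b and miR-93 belong to the miR-17 family, known to repress the cell cycle inhibitor gene Cdkn1a and E2F1 messenger RNA. Mature miR-25 belongs to the miR-92 family and is known in the heart for repression of Atp2a2, the gene of the sarcoplasmic calcium pump. All 3 hairpins are known to be cut from 1 primary transcript, and their mature strands are then processed, loaded and turned over separately.

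The cluster spans 498 nt of the minus strand at mm10 chr5:138165321-138165818. In the 15-exon transcript Mcm7-201 all 3 hairpins lie within intron 13, which is 748 nt long. In the order of transcription Mir106b (chr5:138165737-138165818) comes first and is followed by Mir93 (chr5:138165523-138165610) and Mir25 (chr5:138165321-138165404). The hairpins are 126 nt and 118 nt apart. The annotation also holds Mcm7-202, a retained-intron transcript whose exon 1 contains the hairpins of Mir93 and Mir25 and begins downstream of Mir106b. The hairpins are printed from RefSeq (GRCm38.p6, minus strand, read 5′ to 3′), with the mature arms in capitals, since each gene count pools the reads of both arms.
Mir106b: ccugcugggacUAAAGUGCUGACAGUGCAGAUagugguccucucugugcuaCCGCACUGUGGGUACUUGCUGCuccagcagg
Mir93: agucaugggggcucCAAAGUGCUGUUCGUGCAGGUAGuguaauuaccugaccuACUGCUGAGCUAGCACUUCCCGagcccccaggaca
Mir25: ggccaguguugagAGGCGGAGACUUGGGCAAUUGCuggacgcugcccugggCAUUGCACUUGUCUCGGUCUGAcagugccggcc

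The arm that carries each family's seed is the 5p arm in Mir106b and Mir93 and the 3p arm in Mir25. These arms, and those of relatives from other chromosomes that are compared below, are shown with the seed in capitals. The seed AAAGUGC joins the first set.
miR-106b-5p: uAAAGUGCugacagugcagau
miR-93-5p: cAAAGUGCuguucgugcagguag
miR-17-5p: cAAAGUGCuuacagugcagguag
miR-20a-5p: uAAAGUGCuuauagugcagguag
miR-20b-5p: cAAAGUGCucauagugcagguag
miR-106a-5p: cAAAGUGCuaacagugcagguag

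The seed AUUGCAC joins the second set, in which miR-92a-3p is encoded by both Mir92-1 and Mir92-2.
miR-25-3p: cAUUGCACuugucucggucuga
miR-92a-3p: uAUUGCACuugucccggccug
miR-92b-3p: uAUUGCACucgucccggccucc
miR-32-5p: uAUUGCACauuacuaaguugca
miR-363-3p: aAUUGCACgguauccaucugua

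Counted from 1 at the 5′ end, miR-106b-5p and miR-93-5p agree at 16 of 21 positions, and the differences from miR-106b-5p to miR-93-5p are U1C, A11U, C12U, A13C and A20G. By the same count miR-106b-5p is closer to 3 relatives from the paralogous clusters, each with 18 of 21 positions alike. These are miR-17-5p (U1C, G10U and A20G), miR-20a-5p (G10U, C12U and A20G) and miR-106a-5p (U1C, G10A and A20G). Likewise miR-25-3p and miR-92a-3p agree at 18 of 21 positions (C1U, U14C and U18C). The longest stretch that the hairpin of Mir93 shares with any of 2201 other microRNA hairpins of the annotation is 13 nt, with Mir20a, and for Mir106b and Mir25 it is 14 nt. No stretch of 20 nt recurs, so full-length mature reads of these 3 genes should differ from those of other annotated microRNA genes. The rest of the genome was not searched.

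Replicate 1 held 9362013 reads, of which 3383676 were sense reads of microRNA genes, and replicate 2 held 10549508 reads, of which 3676084 did. Levels are counts per 1000000 sense gene counts (CPM), given as mean ± SD over n = 2 libraries where both are pooled, with Wilson 95% intervals for single libraries that cover counting error only, since PCR reads without molecular identifiers are not independent molecules. Heart muscle markers were present, with 7 striated muscle genes at a sum of 5722 and 4902 CPM in replicates 1 and 2. Most of it came from Mir499 (3977 and 3567 CPM) and Mir208a (1588 and 1247 CPM). Of the 7 genes, 4 had at least 10 counts in both libraries, and all 4 were called higher in replicate 1 by the test described below. Mir1a-1, Mir133a-1 and Mir133a-2 fell short of that minimum. Reads with several matches enter no gene count, and the part of that loss in these genes was not tested. The libraries also differed in genes of other cell types. The endothelial gene Mir126a stood at 129043 and 57714 CPM and 3 erythroid genes summed to 4182 and 1938 CPM, all called higher in replicate 1. In contrast, 5 white blood cell genes summed to 8644 and 16363 CPM and were all called higher in replicate 2, as were 5 of the 6 epithelial genes tested, from a list of 7 whose sum was 201 and 725 CPM. The white blood cell genes differed unequally, with log2 ratios from 0.07 for Mir155 (4266 and 4882 CPM) to 1.60 for Mir150 (2345 and 7737 CPM). Over all genes tested, 33.2% were called higher in replicate 2 and 27.2% in replicate 1. No gene of these lists was at 0, and the part of cell makeup in the results below was not tested. In tissue RNA, fewer cells of a type and less RNA per cell cannot be told apart.

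Mir93 was the dominant product of the cluster in both libraries. It had 15934 counts, or 4709 CPM (4637 to 4783), in replicate 1 and 20479 counts, or 5571 CPM (5495 to 5647), in replicate 2, a mean of 5140.0 ± 609 CPM (SD, n = 2). Among the 316 genes with 10 counts or more in each library it ranked 28 in replicate 1 and 29 in replicate 2. Reads with several matches are in no gene count, so these ranks leave them out.

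Mir106b and Mir25, on either side of Mir93, were lower and less alike between the libraries. Mir106b had 3842 counts, or 1135 CPM (1100.1 to 1172), in replicate 1 and 1914 counts, or 521 CPM (498 to 545), in replicate 2, a mean of 828 ± 435 CPM (SD, n = 2). Mir25 had 3131 counts, or 925 CPM (893 to 958), in replicate 1 and 1302 counts, or 354 CPM (335 to 374), in replicate 2, a mean of 639.8 ± 404 CPM (SD, n = 2). The order Mir93, Mir106b, Mir25 held in both libraries. The ranges of Mir106b and Mir25 over the libraries overlap, and Mir93 lay above both without overlap. In rank, Mir106b stood at 63 and 83 and Mir25 at 68 and 93 in replicates 1 and 2.

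**Figure D1:**
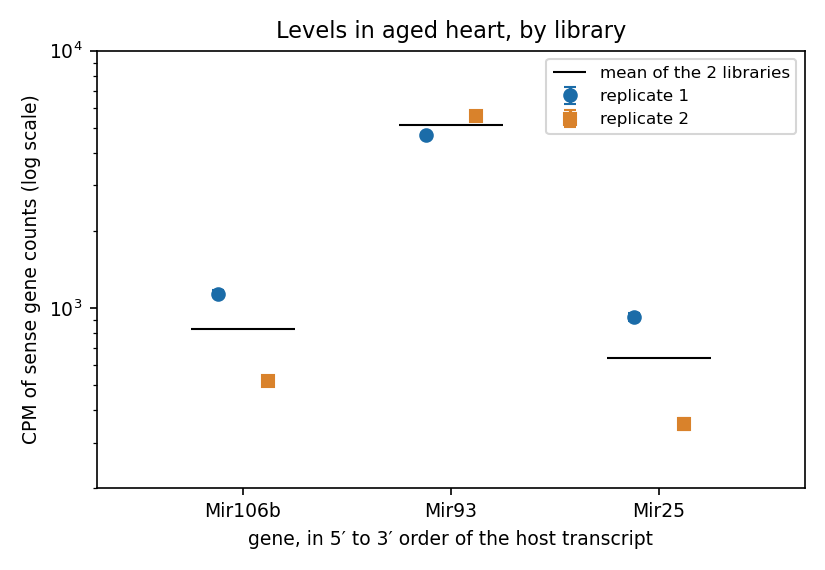
Level of each gene of the Mcm7 intron cluster in each library, in CPM on a log axis, with Wilson 95% intervals (mostly smaller than the symbols) and the mean of the 2 libraries as a line. Mir93 lies at 4709 and 5571 CPM in replicates 1 and 2, while Mir106b lies at 1135 and 521 CPM and Mir25 at 925 and 354 CPM.

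The place of each gene in the list of all genes is not settled against its neighbours. By mean CPM Mir93 ranked 27, between Mir140 (5438 ± 4575 CPM) and Mir150 (5041 ± 3813 CPM). Mir106b ranked 70, between Mir324 (856 ± 161 CPM) and Mir181b-2 (818 ± 83.1 CPM). Mir25 ranked 79, between Mir181d (642 ± 165 CPM) and Mirlet7c-1 (625 ± 99.98 CPM). For all 6 neighbours the range over the libraries overlapped that of the cluster gene.

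The cluster as a whole gave nearly the same share of the sense counts in both libraries, although its makeup differed. The 3 genes summed to 22907 counts in replicate 1, or 0.677% (0.668 to 0.686), and to 23695 counts in replicate 2, or 0.645% (0.636 to 0.653), with a mean of 0.661% ± 0.0229 (SD, n = 2). Of the cluster's own counts Mir93 took 69.6% (69.0 to 70.2) in replicate 1 and 86.4% (86.0 to 86.9) in replicate 2. Mir106b took 16.8% (16.3 to 17.3) and 8.08% (7.74 to 8.43), and Mir25 took 13.7% (13.2 to 14.1) and 5.49% (5.21 to 5.79). Mir93 holds most of the sum in both.

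Ratios within a library need no scaling between libraries and show the same split. Mir93 over Mir25 was 5.09 (exact 95% interval 4.90 to 5.29) in replicate 1 and 15.7 (14.9 to 16.6) in replicate 2, so that it was 3.09 times as high in replicate 2. Mir93 over Mir106b was 4.15 (4.00 to 4.30) in replicate 1 and 10.7 (10.2 to 11.2) in replicate 2, or 2.58 times as high. Mir106b over Mir25 was 1.23 (1.17 to 1.29) in replicate 1 and 1.47 (1.37 to 1.58) in replicate 2, or 1.20 times as high. The intervals of the libraries do not overlap for any of the 3 pairs. They treat each read as an independent molecule, which PCR reads are not, so they may be too narrow. The outer genes Mir106b and Mir25 thus kept nearly the same proportion, and both parted from Mir93. A ratio does not show which of its genes differed between the libraries. Over the libraries the ratios were 10.4 ± 7.52, 7.42 ± 4.63 and 1.35 ± 0.172 (SD, n = 2). The mature strands are of nearly equal length, so counts were not divided by length, and dividing them by hairpin length left the order of the genes as it was (Mir93 over Mir25 then averaged 9.94, Mir93 over Mir106b 6.92 and Mir106b over Mir25 1.38).

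**Figure D2:**
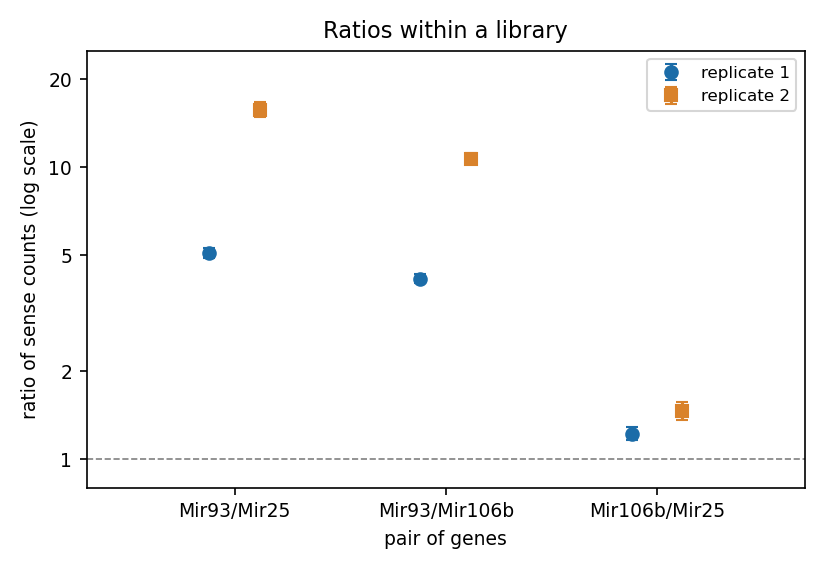
Ratio of sense counts for the 3 pairs of genes of the cluster within each library, on a log axis, with exact 95% intervals and a dashed line at equal counts. Both ratios with Mir93 on top are more than 2.5 times as high in replicate 2, and Mir106b over Mir25 is 1.20 times as high.

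Across the whole table each gene's sense counts in the libraries were compared by an exact binomial test, two-sided, with TMM scaling and Benjamini-Hochberg adjustment over 316 genes. The test sets these 2 libraries against counting noise and compares no conditions. It called 60.4% of the genes tested, so a call for a gene of this depth says little by itself, and all 3 genes of the cluster were called. In replicate 2, Mir25 was lower than in replicate 1, with a log2 ratio of -1.51 (exact 95% interval -1.60 to -1.42; exact binomial test, adjusted p = 8.73e-244). Mir106b was lower too, with a log2 ratio of -1.25 (-1.33 to -1.17; exact binomial test, adjusted p = 1.00e-223). Mir93 had a log2 ratio of 0.12 (0.09 to 0.15; exact binomial test, adjusted p = 2.01e-14), higher in replicate 2 by 1.09-fold. In folds, Mir25 was 2.85 times and Mir106b 2.38 times as high in replicate 1.

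Size separates the genes better than the calls do. A call with a difference of 2-fold or more held for 21.2% of the genes tested, and Mir106b and Mir25 were among them while Mir93 was not. Of the 316 genes, 33 differed by more than Mir25 on the log2 scale, 46 by more than Mir106b and 256 by more than Mir93. The coefficient of variation of CPM between the libraries was 11.9% for Mir93, 52.5% for Mir106b and 63.1% for Mir25. Over all genes edgeR's common dispersion gave a biological coefficient of variation of 42.2%, a value that lies above the median gene, whose coefficient of variation of CPM was 22.4%. DESeq2's median gene-wise value was lower, at 15.8%. Only the median of 22.4% is the same measure as the values of the 3 genes, since the edgeR and DESeq2 estimates leave out counting noise. Mir106b and Mir25 exceeded that median and Mir93 lay below it. By this measure 55 of the 316 genes varied more than Mir106b and 37 more than Mir25. Scaling by library totals moves the median log2 ratio of all genes from 0.05 to 0.18, and relative to the median Mir93 stood at 0.06, Mir106b at -1.30 and Mir25 at -1.56 under TMM, library totals and DESeq2 size factors alike, since a scaling shifts all genes together. The small excess of Mir93 in replicate 2 is therefore of the size by which the scalings differ.

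**Figure D3:**
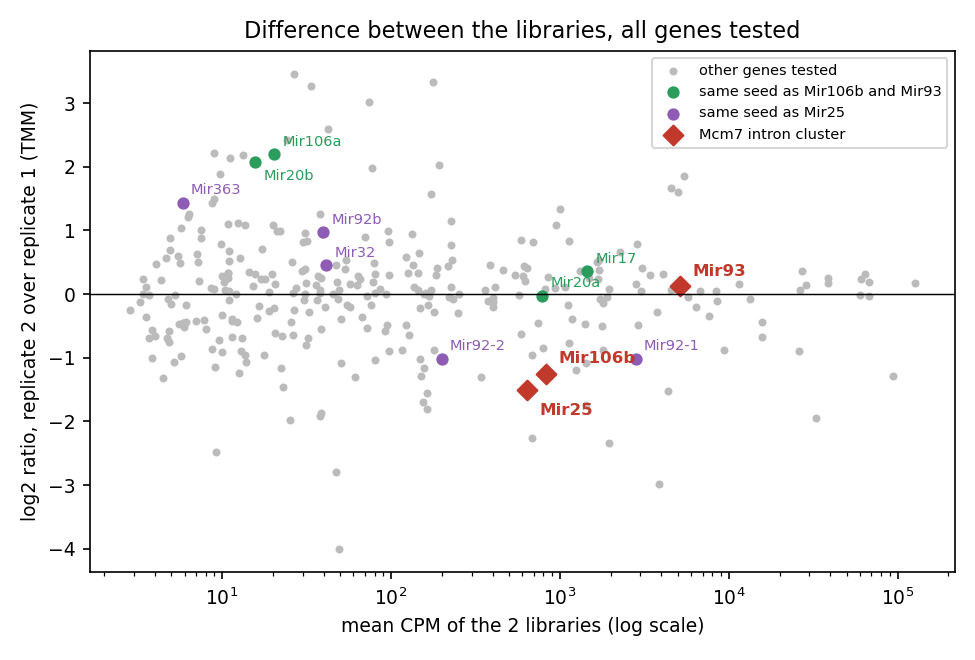
Log2 ratio of replicate 2 over replicate 1 after TMM scaling against mean CPM (log axis) for the 316 genes tested, with the Mcm7 intron cluster as diamonds and the genes that share a seed with it in colour. Mir93 sits at 0.12, close to the median of all genes, and Mir106b and Mir25 sit at -1.25 and -1.51, below Mir92-1 and Mir92-2 at -1.01.

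The genes nearest to each of the 3 in library ratio come from other chromosomes, over 2 libraries and among 199 genes whose counts averaged at least 100. For Mir25 these were Mir15b (log2 ratio -1.52) and Snord43 (-1.56), the latter listed in the annotation as a microRNA gene. For Mir106b they were Mir126a (-1.28) and Mir1306 (-1.29), and for Mir93 they were Mir204 (0.12) and Mir676 (0.12). A likeness over 2 libraries is a single number per gene and carries no more than that.

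Other neighbouring microRNA genes also parted from each other between the libraries. Runs were formed of genes on 1 strand with 10 kb or less between neighbours, and 13 runs had 3 or more genes with 10 counts in each library. The spread of a run, its highest minus its lowest log2 ratio, was 1.63 for the Mcm7 intron cluster, and 3 of the 13 runs had a larger one. The median over the runs was 1.35. The smallest spread was 0.09, in the run of Mirlet7d, Mirlet7f-1 and Mirlet7a-1, and the largest was 3.21, in the miR-106a-363 cluster. Among the 6 runs with exactly 3 such genes, 1 had a larger spread than the Mcm7 intron cluster, that of Mir429, Mir200a and Mir200b at 2.27. With 100 counts or more in each library, 11 runs had 3 such genes, their median was 0.70 and the Mcm7 intron cluster, at 1.63, had the largest spread. Of the 69 genes in the 13 runs, 21 share 20 nt with another locus, so that reads of theirs may have been lost to several matches, and none of those 21 is in the Mcm7 intron cluster. The runs with the smallest and the largest spread both hold such genes. Without them 9 runs had 3 or more genes, with a median of 0.93 and a range of 0.51 to 2.27. In that setting 2 runs had a larger spread than the Mcm7 intron cluster.

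**Figure D4:**
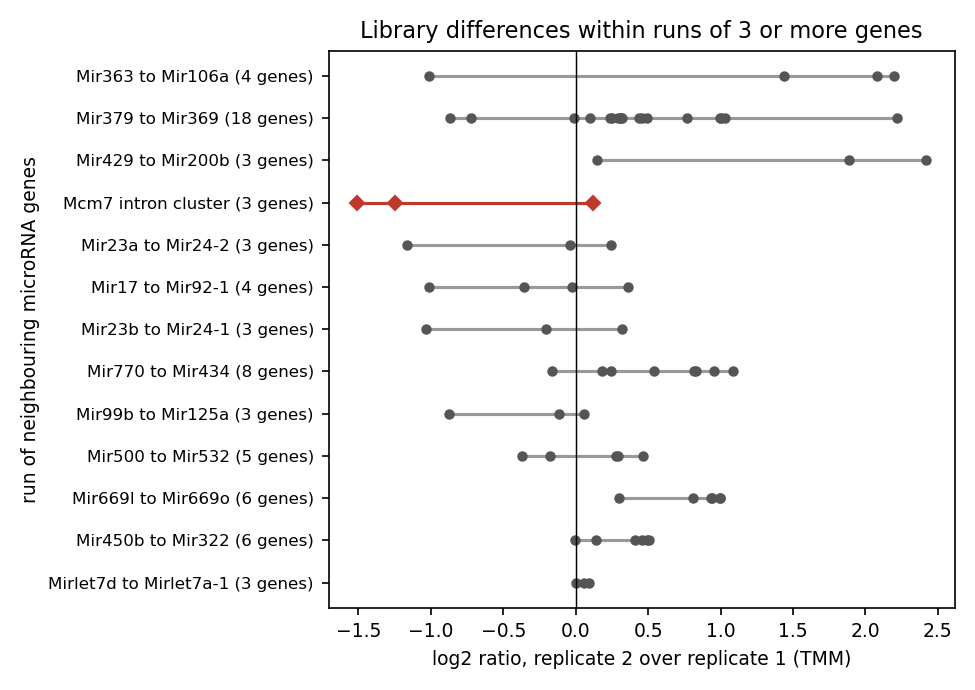
Log2 ratio of replicate 2 over replicate 1 (TMM) for each gene in the 13 runs of neighbouring microRNA genes with 3 or more genes at 10 counts in each library, 1 row per run, ordered by spread. The Mcm7 intron cluster (diamonds) reaches from -1.51 to 0.12, a spread of 1.63, with 3 runs wider and 9 narrower.

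The Mcm7 intron cluster has 2 paralogous clusters, miR-17-92 on chromosome 14, known from proliferating cells and heart growth, and miR-106a-363 on chromosome X. Of the 6 genes of miR-17-92, 4 had 10 counts or more in each library, with Mir17 called higher in replicate 2, Mir92-1 and Mir18 called higher in replicate 1, and Mir20a not called (median log2 ratio -0.19). Mir18 had 246 and 227 counts (log2 ratio -0.36), and library totals do not call it (exact binomial test, adjusted p = 0.119). Of the 6 genes of miR-106a-363, 4 reached that level, with 3 called higher in replicate 2 and 1 in replicate 1 (median 1.76). In the Mcm7 intron cluster 1 gene was higher in replicate 2 and 2 were higher in replicate 1 (median -1.25). The shares over all genes tested were 33.2% higher in replicate 2 and 27.2% in replicate 1, with a median of 0.05. The genes of miR-19, which the Mcm7 intron cluster lacks, were hardly counted, with 0 and 2 counts for Mir19a, 1 and 4 for Mir19b-1 and 0 in both libraries for Mir19b-2, where 3 counts would be 0.887 and 0.816 CPM. Mir19b-1 and Mir19b-2 share a stretch of 20 nt or more, so their counts are uncertain.

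Mir93 supplied most of the counts of its seed group. The 6 genes with the seed AAAGUGC summed to 26491 counts in replicate 1, or 0.783% of the sense counts (0.774 to 0.792), and 31852 in replicate 2, or 0.866% (0.857 to 0.876). Mir6383 has the same seed in RefSeq and had 0 counts in both libraries. Of the group's counts Mir93 took 60.1% (59.6 to 60.7) in replicate 1 and 64.3% (63.8 to 64.8) in replicate 2. Mir106b took 14.5% (14.1 to 14.9) and 6.01% (5.75 to 6.28), the widest difference in share among the 6 genes. Together the Mcm7 intron cluster gave 74.7% (74.1 to 75.2) and 70.3% (69.8 to 70.8) of the group's counts, against 25.2% (24.7 to 25.7) and 29.0% (28.5 to 29.5) from Mir17 and Mir20a. Gene counts pool both arms of a hairpin, and the other arm has another seed. The shares here and in the seed group of Mir25 are thus shares of gene counts, and the mature strands were not measured separately.

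Within that group of 6 genes Mir106b was the only gene called higher in replicate 1, and 4 were called higher in replicate 2. The shares over all genes tested were 27.2% and 33.2%. Of the 3 relatives closest to miR-106b-5p in sequence, Mir17 had 4101 and 6245 counts in replicates 1 and 2, or 1212 and 1699 CPM, with a log2 ratio of 0.36 (exact binomial test, adjusted p = 7.83e-36). Mir106b over Mir17 was thus 0.937 (exact 95% interval 0.896 to 0.979) in replicate 1 and 0.306 (0.291 to 0.323) in replicate 2, with Mir106b just below Mir17 in the former and far below it in the latter. Mir93 over Mir17 was 3.89 (3.75 to 4.02) and 3.28 (3.19 to 3.37), a much smaller difference. Mir20a had 2572 and 2994 counts and was not called (log2 ratio -0.02; exact binomial test, adjusted p = 0.616), although library totals turn its ratio to 0.10 with an adjusted p of 0.0182. The X-linked members were rare, with 23 and 125 counts for Mir106a and 19 and 95 for Mir20b, and both were called higher in replicate 2 (log2 ratios 2.20 and 2.08).

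Mir25 was the second gene of its seed group by count, after Mir92-1. The 7 genes with the seed AUUGCAC summed to 16588 counts in replicate 1, or 0.490% of the sense counts (0.483 to 0.498), and to 9485 in replicate 2, or 0.258% (0.253 to 0.263). Mir25 took 18.9% (18.3 to 19.5) of them in replicate 1 and 13.7% (13.0 to 14.4) in replicate 2, while Mir92-1 took 74.6% (73.9 to 75.2) and 76.5% (75.6 to 77.4). The more abundant genes of the group all stood lower in replicate 2. Mir92-1 had 12373 and 7257 counts (log2 ratio -1.01), Mir92-2 had 877 and 514 (-1.01) and Mir25 had 3131 and 1302 (-1.51). The rarer genes stood higher there, with 112 and 181 counts for Mir32 (0.45), 85 and 198 for Mir92b (0.98) and 10 and 32 for Mir363 (1.43). All 6 were called, 3 in each direction, and Mir367 had 0 and 1 counts. Over all genes tested 60.4% were called, 33.2% higher in replicate 2 and 27.2% higher in replicate 1. Mir92-1 and Mir92-2 encode 1 mature sequence and share more than 20 nt, so reads that fit both entered neither count. Their levels beside Mir25 are therefore uncertain. The group's totals may be too low, and the share of Mir25 and its ratio to Mir92-1 too high, by an amount that the intervals do not cover. Mir25 over Mir92-1 was 0.253 (exact 95% interval 0.243 to 0.263) and 0.179 (0.169 to 0.190).

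**Figure D5:**
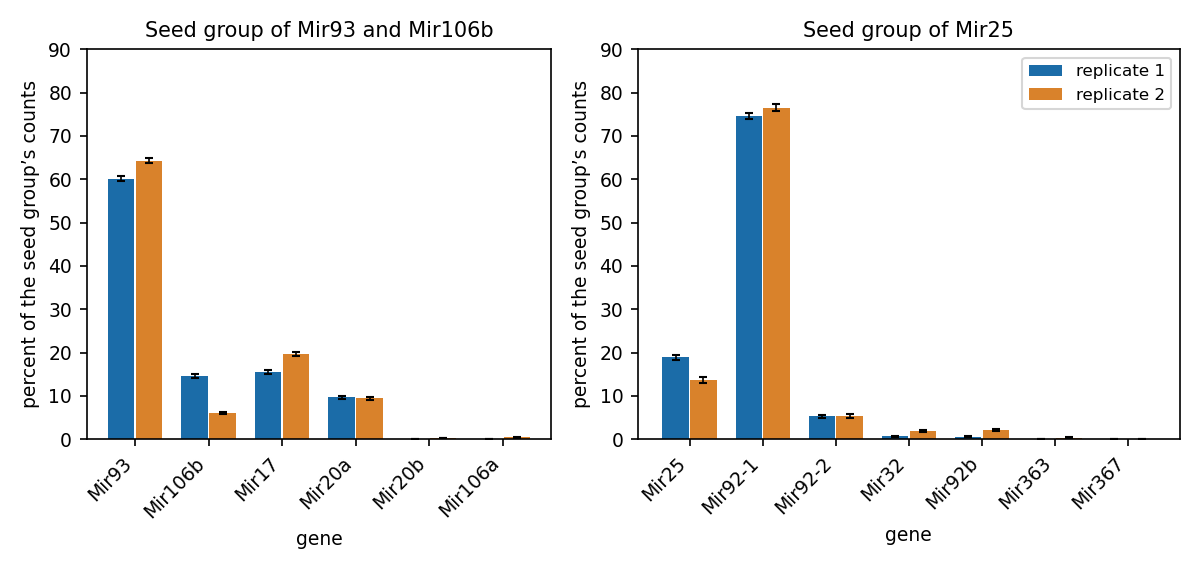
Share of each seed group's sense counts taken by each gene, in percent, with Wilson 95% intervals, for replicates 1 and 2. Mir93 holds 60.1% and 64.3% of its group, Mir106b holds 14.5% and 6.01%, and Mir25 holds 18.9% and 13.7% of the group led by Mir92-1. Reads that fit both Mir92-1 and Mir92-2 are in neither count, so the share of Mir25 may be too high. Gene counts pool both arms of a hairpin.

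The miR-17-92 cluster, also of 1 transcript, had a spread of 1.38 in log2 ratio, near the median of 1.35 over the 13 runs. Its ratios to Mir92-1 are uncertain, since that count lacks the reads that also fit Mir92-2. Mir17 over Mir92-1 was 0.331 (exact 95% interval 0.320 to 0.343) in replicate 1 and 0.861 (0.832 to 0.890) in replicate 2, or 2.60 times as high, beside 3.09 times for Mir93 over Mir25. Mir20a over Mir92-1 was 0.208 (0.199 to 0.217) and 0.413 (0.395 to 0.431), or 1.98 times as high in replicate 2. In the miR-17-92 cluster both genes with the miR-17 family seed were thus higher in replicate 2 relative to the gene with the miR-92 family seed. In the Mcm7 intron cluster that held strongly for Mir93, while Mir106b, with the same seed, was 1.20 times as high relative to Mir25.

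Reads of the 3 genes came from 1 strand. Neither library held an antisense count for Mir106b, Mir93 or Mir25, and counts on either strand equalled the sense counts. For 0 antisense counts, 3 counts set an upper limit of 0.0188% and 0.0146% of the reads at Mir93, 0.0781% and 0.157% at Mir106b, and 0.0958% and 0.230% at Mir25, in replicates 1 and 2. Reads were aligned to mm10, so CAST/EiJ variants in these hairpins could lower their counts, which was not tested. A bias in ligation or amplification of single sequences was not tested either.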

How the data were processed

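MicroRNA-seq was measured in 2 heart libraries. The authors deposited 1 table of raw gene counts for each library, with columns for either-strand, sense and antisense reads, on mm10 with GENCODE M21, per the readme texts and the files' values. Which aligner and counter were run is not given in the sources used here. The 4 rows that are no genes were left out of the gene count totals and are included in the read totals. Of all reads, unmapped, multimapping, featureless and ambiguous reads took 14.9%, 43.9%, 5.07% and 0% in replicate 1 and 16.2%, 43.2%, 5.75% and 0% in replicate 2. Reads with several matches enter no gene count.

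All 2202 identifiers matched GENCODE M21. Sense counts were used, CPM on their totals of 3383676 and 3676084, and genes with 10 counts or more in each library were tested. The exact binomial test used TMM effective library sizes (edgeR 4.0.16), with calls at an adjusted p of 0.05, and DESeq2 1.42.0 gave alternative size factors. Intervals are Wilson or exact at 95%. Counts of 305 genes were also simulated, with counting noise only. The test called 84.2% of 38 genes with a 2-fold change and 96.9% of 32 with a 4-fold change. It also called 2.13% of 235 genes without a change. The real libraries vary by more than counting noise, so these rates do not describe the calls between them. Sequences are RefSeq's (GRCm38.p6). Scripts ran in R 4.3.3 and in Python 3.11.15 with scipy 1.17.1, pandas 2.3.3 and numpy 2.4.6, and figures were drawn with matplotlib 3.10.9.

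The members, the lists and the alternatives were chosen with earlier results of these data known. Named genes are the 3 members, their seed groups and paralogous clusters, the genes next in rank, the 2 nearest in library ratio for each, the runs with the smallest and largest spread, and the cell type markers; the run of Mir429 was named after its values were seen. Alternatives were either-strand counts, other denominators, other scalings and minimum counts, hairpin length, other run rules and each library left out.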

Additional observations from a re-analysis of the deposited data

How the results depend on the processing

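The calls and directions of Mir106b, Mir93 and Mir25 between the libraries were the same under library totals, DESeq2 size factors, no minimum beyond 1 count, a minimum of 100 counts and either-strand counts; Mir93 ranged from 0.06 with DESeq2 size factors to 0.24 with library totals on the log2 scale. The number of genes called, 191 of 316 tested, ranged from 132 of 181 at a minimum of 100 counts to 201 of 708 with no minimum beyond 1 count. The share called thus depended on the minimum, at 72.9% and 28.4% in these settings. Levels depend on the denominator. With all reads as the denominator they were 296 CPM for Mir106b, 1822 for Mir93 and 229 for Mir25, and the cluster took 0.235%. With either-strand counts, whose total is smaller, Mir93 stood at 6867 CPM and the cluster at 0.885%. DESeq2's median gene-wise value, a different measure of the spread, was 0.158 beside edgeR's 0.422. The median spread over runs was 0.695 at 100 counts, where fewer genes were tested. With 1 library left out, Mir93 over Mir25 was 5.09 or 15.7 and Mir93 over Mir106b 4.15 or 10.7. No paired analysis was possible because there is 1 group.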
